A study of Homo sapiens with 12 samples.

Results

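The 5 ETS transcription factors EHF, ELF3, SPDEF, ETV7 and ELF1 were followed across 3 human cancer cell lines and 4 transfections. All probe sets whose annotation named one of the 5 genes and no other were taken, which gave 18 of the 54675 probe sets on the array: 6 for EHF, 3 for ELF3, 5 for SPDEF, 2 for ETV7 and 2 for ELF1. The genes were chosen by measured values: EHF because its values were lower with the G-quadruplex (G4) oligonucleotides in each of the 3 lines, and the others beside it, with their values known. The contrast of G4 oligonucleotides with controls therefore appears below for these genes as a description, with no test. G4 structures are 4-stranded folds of guanine-rich nucleic acid.

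The arrays came from PC-3 (a prostate cancer line), HBC4 (a breast cancer line) and MKN74 (a gastric cancer line), each with 4 treatments and 1 array per line and treatment, 12 arrays in all. The G4-forming oligonucleotides were the RNA (uuaggg)4, a telomeric RNA repeat, and the DNA AS1411, a guanine-rich aptamer known to bind nucleolin. The controls were the RNA (uuaccc)4, in which cytosines stand in place of the guanines, and the lipofection reagent with no oligonucleotide. About 100 pmol of oligonucleotide per well was transfected into 300000 cells, the cells were kept on a low-adhesion surface, and RNA was taken after 72 h. All 12 cultures received the reagent, and the labels name no further cultures, so a treatment is represented by 3 arrays, 1 from each line. The p-values below measure the spread between these arrays that is left after line and treatment are fitted. No culture was repeated within a line and treatment, so spread between repeated cultures is not measured. The 4 arrays of a line are its 4 treatments. The number of arrays limits the precision.

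ETS factors share a DNA-binding domain that reads a GGAA core. EHF, ELF3 and SPDEF are largely restricted to epithelia: EHF and ELF3 act in epithelial differentiation, and SPDEF was described in prostate epithelium and drives goblet cell maturation in mice. ETV7 is an interferon-induced repressor, and ELF1, a widely expressed factor, has been linked to antiviral gene expression in human cells.

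Promoter windows of EHF and ELF1 are shown because their values moved alike over the arrays, and because 3 motifs were searched on both strands of each window. A window holds 250 bases before and 50 bases after an annotated start site, written 5′ to 3′ on the gene's strand, from RefSeq on GRCh38.p14. The motifs were AANNGAAA (bound by interferon regulatory factors), TTCNNNGAA (bound by STAT factors) and CCGGAAGT (bound by ETS factors). Overlap between motifs was not excluded. Of the 35116 windows of all genes, 22.8% held the first motif, 7.66% held the second and 4.14% held the third. The windows shown were picked for their matches, so they are not read against these shares. Capitals mark the matches. The first window is chr11:34624007-34624306 on the plus strand, with AANNGAAA on the opposite strand 113 and 67 bases before the start site. The second is chr11:34632316-34632615 on the plus strand, with TTCNNNGAA 6 bases after the start site. The third is chr13:40982850-40983149 on the minus strand, with AANNGAAA on the opposite strand 233 and 121 bases before the start site. It is 1 of 3 windows of ELF1 and not the most upstream, which is chr13:41061337-41061636 and held no match.
EHF, upstream start: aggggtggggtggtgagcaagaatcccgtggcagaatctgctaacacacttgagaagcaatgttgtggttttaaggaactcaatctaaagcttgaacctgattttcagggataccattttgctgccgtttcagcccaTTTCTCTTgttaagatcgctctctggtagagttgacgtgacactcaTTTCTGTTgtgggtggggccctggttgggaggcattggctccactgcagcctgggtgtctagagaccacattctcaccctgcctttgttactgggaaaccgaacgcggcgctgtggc
EHF, downstream start: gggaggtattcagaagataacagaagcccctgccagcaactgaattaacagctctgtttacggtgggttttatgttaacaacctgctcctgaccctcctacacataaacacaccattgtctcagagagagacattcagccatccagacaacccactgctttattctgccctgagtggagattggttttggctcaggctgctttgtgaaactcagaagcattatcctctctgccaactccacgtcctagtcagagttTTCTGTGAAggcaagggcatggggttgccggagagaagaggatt
ELF1: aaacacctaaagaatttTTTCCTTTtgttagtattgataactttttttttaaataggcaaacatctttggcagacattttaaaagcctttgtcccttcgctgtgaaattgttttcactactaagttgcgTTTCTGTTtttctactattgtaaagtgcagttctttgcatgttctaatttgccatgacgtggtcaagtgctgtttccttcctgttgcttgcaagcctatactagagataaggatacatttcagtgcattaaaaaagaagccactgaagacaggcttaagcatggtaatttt
The other 2 windows of ELF1 and the windows of ELF3 and SPDEF held none of the 3 motifs, and CCGGAAGT was in no window of these genes. A match is a description of the letters, and binding was not measured. No window of ETV7 was used.

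Values are log2 expression on an array, given as the difference from the probe set's own median over the 12 arrays. A negative value lies below that median and does not mean that the transcript was not detected. Because each probe set was centred in this way, levels cannot be compared between genes, and absence cannot be read. Over all probe sets, the lowest correlation between arrays of 1 line was 0.856 and the highest between arrays of 2 lines was -0.171, a value that the centring lowers. Among marker genes, 1 of 4 measured prostate markers (HOXB13) was higher in PC-3 than in both other lines (limma, adjusted p under 0.05). By the same test, 3 of 5 breast markers (SCGB2A2, PIP and ESR1) were higher in HBC4, and 1 of 8 gastric or intestinal markers (CDX2) was higher in MKN74. Other markers went the other way. On the log2 scale, MKN74 minus PC-3 was -8.30 for TFF1, -8.86 for TFF2 and -2.51 for MUC5AC, all of the gastric or intestinal list. For the prostate marker KLK3, PC-3 minus HBC4 was -0.59 and PC-3 minus MKN74 was -0.33. The prostate and the gastric or intestinal lists as a whole thus did not follow the tissue of the line. Of lists of markers of epithelial, prostate, breast, gastric or intestinal, fibroblast, leukocyte and endothelial cells, 0 genes passed the test with the G4 oligonucleotides (limma; 0 to 2 genes a list had an unadjusted p under 0.05), and the list medians lay between -0.10 and 0.10 on the log2 scale. Over all genes 1.41% passed as lower and 0.678% as higher, and 18.8% had an unadjusted p under 0.05 (limma). With shares this low, 0 calls in such short lists says little about cell identity. In these bulk samples, fewer cells that express a gene and less RNA per cell cannot be told apart.

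EHF, a factor of epithelial differentiation, was lower with both G4 oligonucleotides in every line. Each gene with several probe sets is led here by the one whose 3 line means differed most, for EHF 225645_at. In PC-3 its values were -0.80 with (uuaggg)4 and -0.89 with AS1411, against -0.20 with (uuaccc)4 and -0.26 with the reagent alone. In HBC4 they were 0.71 with (uuaggg)4 and 0.80 with AS1411, against 1.73 with (uuaccc)4 and 1.57 with the reagent alone. In MKN74 they were -0.62 with (uuaggg)4 and -0.96 with AS1411, against 0.20 with (uuaccc)4 and 0.28 with the reagent alone. Both G4 arrays lay below both control arrays in each line, with no overlap. The difference, G4 minus controls, was -0.62 for PC-3, -0.90 for HBC4 and -1.03 for MKN74, that is 1.53-fold, 1.86-fold and 2.05-fold lower, and averaged -0.85 ± 0.21 (SD over 3 lines). Against its own control, (uuaggg)4 minus (uuaccc)4 was -0.81 ± 0.21 and AS1411 minus reagent was -0.88 ± 0.32 (SD, n = 3 lines).

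The other 5 EHF probe sets went the same way, with mean differences between -0.76 and -0.36. In all 6, both G4 arrays lay below both controls in each of the 3 lines, a pattern found in 2.98% of the 54613 probe sets other than array controls. Since EHF was picked for it, nothing is read from that share. With the line means removed, the 15 pairs correlated at 0.71 to 0.94 over the 12 arrays, and at 0.05 to 0.96 with the line means kept. With lines removed, what is left holds the difference between treatments for which EHF was chosen. With all 6 averaged, the EHF difference was -0.63.

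**Figure D1:**
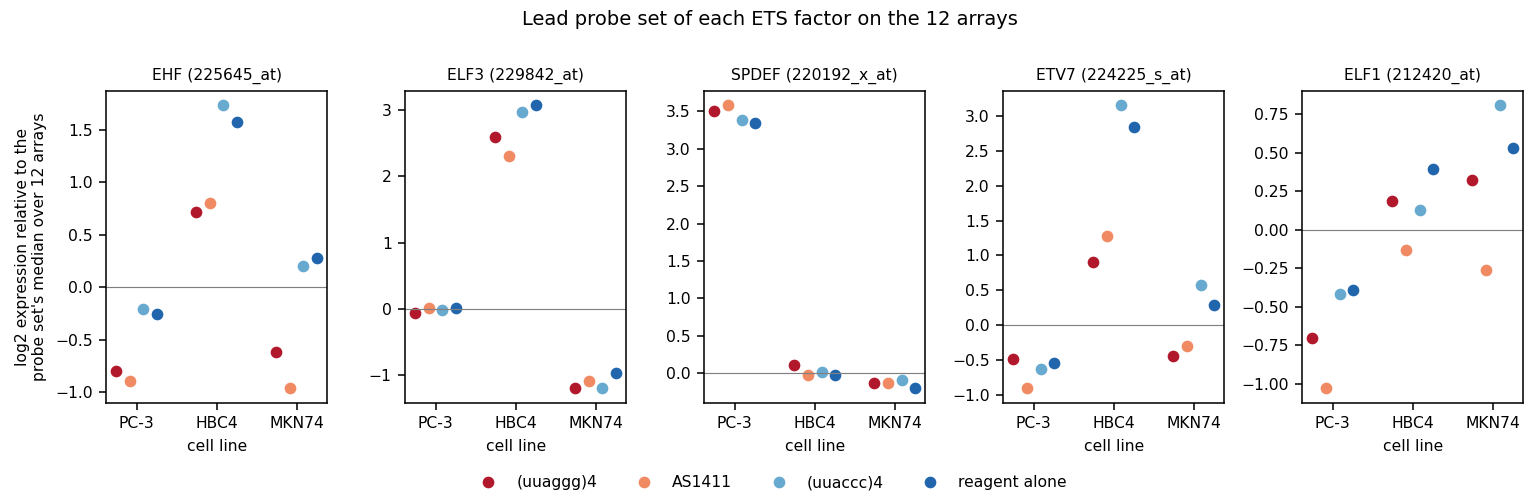
Log2 expression relative to the probe set's median over 12 arrays (vertical axis) for the lead probe set of each gene, with the 4 arrays of each line side by side and 1 point per array. For EHF both G4 points lie below both control points in every line, for ETV7 in HBC4 and MKN74, and SPDEF is high in PC-3 on all 4 arrays.

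ETV7, an interferon-induced repressor, had the most uneven values. On its lead probe set 224225_s_at, the HBC4 arrays read 0.90 with (uuaggg)4 and 1.27 with AS1411, against 3.16 with (uuaccc)4 and 2.85 with the reagent alone. The MKN74 arrays read -0.44 with (uuaggg)4 and -0.30 with AS1411, against 0.57 with (uuaccc)4 and 0.30 with the reagent alone. The PC-3 arrays read -0.48 with (uuaggg)4 and -0.91 with AS1411, against -0.63 with (uuaccc)4 and -0.54 with the reagent alone. The G4 arrays were below both controls in HBC4 and MKN74, as were 19.9% and 20.2% of all probe sets, and in PC-3 the groups overlapped. G4 minus controls was -1.91 in HBC4 (3.77-fold lower), -0.80 in MKN74 (1.75-fold lower) and -0.11 in PC-3, with a mean of -0.94 ± 0.91 (SD over 3 lines). The second probe set, 221680_s_at, gave -0.82 in HBC4, -0.25 in MKN74 and 0.19 in PC-3, and the 2 probe sets correlated at 0.90 with line means removed. The mean of the lead probe set rests on HBC4: without that line it was -0.46.

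ELF1, the widely expressed member, was lower by less. Its lead probe set 212420_at read -0.70 with (uuaggg)4 and -1.03 with AS1411 in PC-3, against -0.42 with (uuaccc)4 and -0.39 with the reagent alone. In MKN74 it read 0.32 with (uuaggg)4 and -0.26 with AS1411, against 0.81 with (uuaccc)4 and 0.53 with the reagent alone. In HBC4 it read 0.19 with (uuaggg)4 and -0.13 with AS1411, against 0.13 with (uuaccc)4 and 0.39 with the reagent alone. Both G4 arrays lay below both controls in PC-3 and MKN74, as did 21.8% and 20.2% of all probe sets, and the groups overlapped in HBC4. The mean difference was -0.44 ± 0.20 on this probe set and -0.29 ± 0.06 on 212418_at (SD over 3 lines). On 212418_at both G4 arrays lay below both controls in all 3 lines, as for 2.98% of all probe sets.

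ELF3, like EHF a factor of epithelial differentiation, was lower in HBC4 and differed by probe set elsewhere. Its lead probe set 229842_at read 2.60 with (uuaggg)4 and 2.31 with AS1411 in HBC4, against 2.97 with (uuaccc)4 and 3.07 with the reagent alone, a difference of -0.57 (1.48-fold lower) with no overlap. In PC-3 the readings were -0.05 with (uuaggg)4 and 0.01 with AS1411, against -0.01 with (uuaccc)4 and 0.01 with the reagent alone. In MKN74 they were -1.19 with (uuaggg)4 and -1.09 with AS1411, against -1.19 with (uuaccc)4 and -0.97 with the reagent alone. The groups overlapped in PC-3 and MKN74, where the differences were -0.02 and -0.06. Probe set 201510_at gave -0.42 in HBC4, -0.12 in PC-3 and -0.13 in MKN74. Probe set 210827_s_at disagreed with both outside HBC4: it gave -0.32 in HBC4 but 0.63 in PC-3 and 0.29 in MKN74. Both of its G4 arrays lay above both controls in PC-3 and MKN74, as did 25.0% and 21.7% of all probe sets. Below both controls in HBC4 were 19.9% of all probe sets, so a lack of overlap is common. The direction of ELF3 in PC-3 and MKN74 thus depends on the probe set.

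SPDEF, the goblet cell factor, was not lower in any line on its lead probe set. That probe set, 220192_x_at, read 3.50 with (uuaggg)4 and 3.58 with AS1411 in PC-3, against 3.39 with (uuaccc)4 and 3.35 with the reagent alone. Both G4 arrays lay above both controls there, by 0.17. In HBC4 it read 0.11 with (uuaggg)4 and -0.02 with AS1411, against 0.02 with (uuaccc)4 and -0.02 with the reagent alone. In MKN74 it read -0.13 with (uuaggg)4 and -0.13 with AS1411, against -0.08 with (uuaccc)4 and -0.20 with the reagent alone. The groups overlapped in both. In PC-3, 4 of the 5 SPDEF probe sets had both G4 arrays above both controls, as did 25.0% of all probe sets. All 5 carry the suffix _x_at, which marks probe sets with probes that also match other sequences.

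Over the 18 probe sets, both G4 arrays lay below both controls for 9 in PC-3, where 21.8% of all probe sets did so, for 13 in HBC4 (19.9% of all) and for 10 in MKN74 (20.2% of all). They lay above both controls for 5 in PC-3 (25.0% of all), 4 in MKN74 (21.7% of all) and 0 in HBC4 (25.1% of all). The contrast helped to choose the genes, so these counts describe them and are not read against the shares. Below in all 3 lines were 7 of the 18, the 6 of EHF and 1 of ELF1. Over the 3 lines, the plotted differences of the EHF probe sets ran between -1.03 and -0.22, and those of ETV7 between -1.91 and 0.19.

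**Figure D2:**
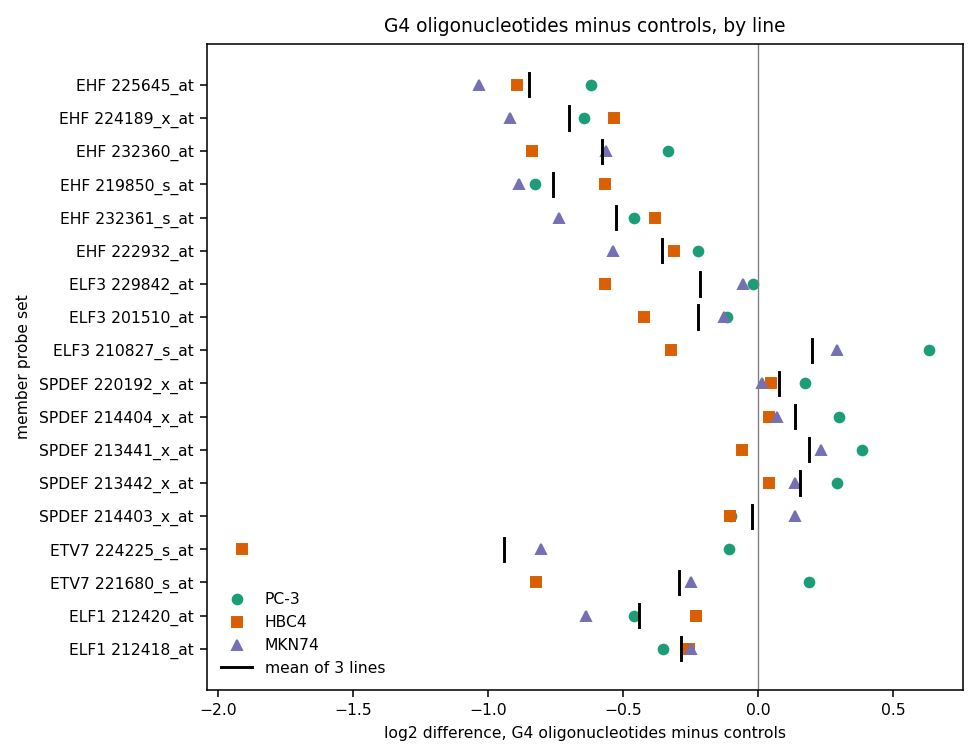
Log2 difference, mean of the 2 G4 arrays minus mean of the 2 control arrays (horizontal axis), for the 18 probe sets (rows), with 1 symbol per line and a bar at the mean of the 3 lines. All EHF symbols lie left of 0, ETV7 reaches -1.91 in HBC4, and ELF3 210827_s_at lies at 0.63 in PC-3.

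The G4 oligonucleotides were next compared with each other, a difference the choice of genes did not use. (uuaggg)4 minus AS1411 passed the test for 0 of the 18 probe sets (limma, Benjamini-Hochberg over 54613 probe sets; 0.0% of all passed), and 2 of the 18 had an unadjusted p under 0.05, against 4.82% of all probe sets. For EHF the lead difference was 0.12 (95% interval -0.15 to 0.38), with means over 3 lines of -0.24 ± 0.83 for (uuaggg)4 and -0.35 ± 1.00 for AS1411 (SD). For ETV7 it was -0.03, with an interval of -0.77 to 0.71, wider than for any other lead probe set. The smallest p was that of ELF1 212420_at, which was higher with (uuaggg)4 than with AS1411 in each line, by 0.41 on average (SE 0.13, interval 0.13 to 0.69), with an adjusted p of 0.986 in limma. Its second probe set gave -0.06. EHF 224189_x_at differed by 0.35 (interval 0.05 to 0.65, adjusted p 1.00 in limma), and the other 5 EHF probe sets by -0.01 to 0.22.

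The control transfections were compared in the same way. (uuaccc)4 minus reagent passed for 0 of the 18 probe sets (limma; 0.0% of all passed), 0 of the 18 had an unadjusted p under 0.05, and 3.12% of all did. The differences lay between -0.22 and 0.17, and the interval of the EHF lead difference of 0.05 was -0.22 to 0.31. For ETV7 the difference was 0.17 with an interval of -0.57 to 0.91.

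The levels of the factors in the 3 lines were compared with treatment as a block. Each lead probe set was picked for the largest spread of its line means, so its line differences are selected to be large, and the other probe sets or their average stand beside it. SPDEF was high in PC-3, ELF3 and ETV7 in HBC4, EHF in HBC4 on most probe sets, and ELF1 was lowest in PC-3. Of the 18 probe sets, 17 differed in PC-3 against HBC4 (3 higher and 14 lower), where 46.8% of all probe sets did; 10 differed in PC-3 against MKN74 (6 higher and 4 lower), where 52.7% of all did; and 12 differed in HBC4 against MKN74 (10 higher and 2 lower), where 43.1% of all did (limma, adjusted p under 0.05). For PC-3 against MKN74 the count was near the share of all probe sets, so it says little about these genes as a group.

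For SPDEF, the lead probe set averaged 3.45 ± 0.11 for PC-3, 0.02 ± 0.06 for HBC4 and -0.14 ± 0.05 for MKN74 (SD over 4 arrays). It was 10.8-fold higher in PC-3 than in HBC4 (adjusted p 4.75e-12 in limma), and its difference from MKN74 was 3.59 on the log2 scale (adjusted p 2.57e-12). With the 5 probe sets averaged, these log2 differences were 1.26 and 1.33, against 3.43 and 3.59 on the lead one. On the lead probe set HBC4 minus MKN74 was 0.16 and did not pass (adjusted p 0.125 in limma). The lowest HBC4 array, at -0.02, still lay above the highest MKN74 array, at -0.08. Of the other probe sets, 214404_x_at was 5.01-fold and 213441_x_at 1.89-fold higher in PC-3 than in HBC4. On 213442_x_at PC-3 was lower than HBC4, by 0.31, and on 214403_x_at no pair of lines passed, so 3 of the 5 carry the PC-3 level.

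For ELF3, the lead probe set averaged -0.01 ± 0.03 for PC-3, 2.73 ± 0.35 for HBC4 and -1.11 ± 0.11 for MKN74 (SD over 4 arrays). PC-3 was 6.70-fold lower than HBC4 (adjusted p 2.03e-09 in limma) and 2.14-fold higher than MKN74 (adjusted p 7.97e-06), and HBC4 was 14.4-fold higher than MKN74 (adjusted p 1.11e-10). All 3 probe sets gave the order HBC4, PC-3, MKN74, and each pair of neighbours passed on each. The folds were smaller on the other probe sets. PC-3 was 5.86-fold lower than HBC4 on 201510_at and 2.96-fold lower on 210827_s_at. It was 1.63-fold and 1.57-fold higher than MKN74 on them, and HBC4 was 9.55-fold and 4.65-fold higher than MKN74.

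For EHF, the lead probe set averaged -0.54 ± 0.36 for PC-3, 1.20 ± 0.52 for HBC4 and -0.28 ± 0.61 for MKN74 (SD over 4 arrays, G4 arrays included). PC-3 was 3.35-fold lower than HBC4 (adjusted p 3.37e-08 in limma), and HBC4 was 2.79-fold higher than MKN74 (adjusted p 1.72e-07). On the other 5 probe sets PC-3 was 1.26-fold to 2.02-fold lower than HBC4. With all 6 averaged, the log2 difference was -0.90 for PC-3 minus HBC4, against -1.74 on the lead one, and 0.60 for HBC4 minus MKN74, against 1.48. PC-3 and MKN74 differed by -0.26 with an adjusted p of 0.0556, which missed the threshold. On the 6 control arrays alone, an alternative added after the data were seen, that difference was -0.47 with an adjusted p of 0.0136. HBC4 was the highest line on 5 of the 6 probe sets; on 232361_s_at MKN74 was, 1.51-fold above HBC4 (adjusted p 4.81e-04).

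For ETV7, the lead probe set averaged -0.64 ± 0.19 for PC-3, 2.04 ± 1.12 for HBC4 and 0.03 ± 0.48 for MKN74 (SD over 4 arrays). PC-3 was 6.42-fold lower than HBC4 (adjusted p 7.35e-06 in limma) and HBC4 was 4.03-fold higher than MKN74 (adjusted p 9.70e-05). On 221680_s_at the same differences were smaller, 2.35-fold and 1.81-fold. PC-3 minus MKN74 did not pass, at -0.67 on the lead probe set (adjusted p 0.0736 in limma) and -0.38 on 221680_s_at (adjusted p 0.0956). On the control arrays alone the lead difference was -1.02 with an adjusted p of 6.15e-04. It passed under 4 alternatives and did not under 15. The adjusted p was 0.00772 without the (uuaggg)4 array of PC-3 and 0.286 without its (uuaccc)4 array. ELF1 averaged -0.64 ± 0.30 for PC-3, 0.14 ± 0.21 for HBC4 and 0.35 ± 0.45 for MKN74 on its lead probe set. It was 1.72-fold lower in PC-3 than in HBC4 (adjusted p 8.38e-05 in limma) and 1.98-fold lower than in MKN74 (adjusted p 9.04e-06). On 212418_at PC-3 was 1.51-fold lower than HBC4 and 1.85-fold lower than MKN74. HBC4 against MKN74 did not pass on the lead probe set (adjusted p 0.174 in limma), although it did on 212418_at (adjusted p 0.0129).

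**Figure D3:**
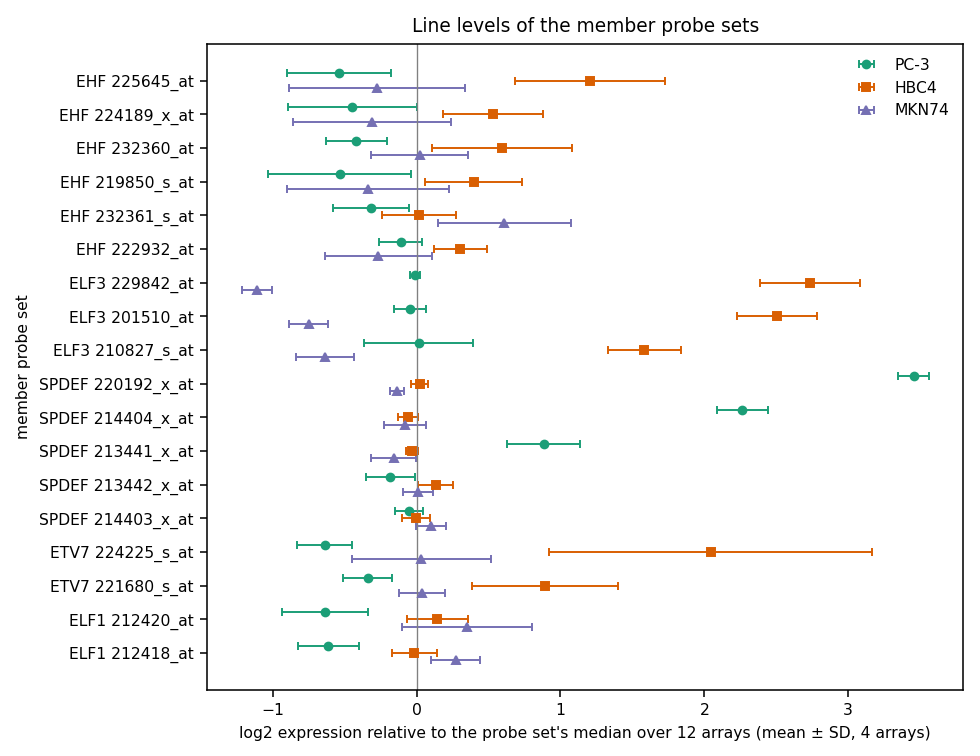
Mean and SD over the 4 arrays of each line (horizontal axis, log2 expression relative to the probe set's median over 12 arrays) for the 18 probe sets (rows). SPDEF lies at 3.45 in PC-3 on its lead probe set and ELF3 at 2.73 in HBC4, while the bars of the EHF lead probe set in PC-3 and MKN74 overlap.

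The genes whose pattern over arrays was most like EHF were sought with line means removed, by Pearson correlation over the 12 arrays among 19774 other genes. They were DRAM1, a lysosomal membrane protein, at 0.986, the long non-coding RNA HCP5 at 0.972, the histone gene H2BC4 at 0.971, ARRDC2 at 0.970 and the membrane ubiquitin ligase MARCHF8 at 0.968. Among these 5, G4 minus controls averaged between -1.54 (HCP5) and -0.28 (MARCHF8). For ETV7 they were the iron transporter SLC11A2 at 0.975, the transcription factor RFX7 at 0.974, H2BC6 at 0.960, the interferon gene IFNL2 at 0.956 and GLCCI1 at 0.955. IFNL2 and the histone genes have near-identical relatives whose transcripts their probe sets may also detect. Among the 5 factors, EHF correlated with ETV7 at 0.81, with ELF1 at 0.79, with ELF3 at 0.56 and with SPDEF at -0.49. All of these come from the same 12 arrays and the same treatment groups and are descriptions.

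The same contrast was tested in the rest of the ETS family. These genes are what was left after EHF and the factors beside it were chosen with their values known. A low count among them can follow in part from that choice, so it is not independent evidence about the family. Of 22 other ETS genes measured (of 23 listed), 0 passed the test for G4 oligonucleotides against controls in either direction (limma, adjusted over 54613 probe sets, with each gene led by its lead probe set), and 6 had an unadjusted p under 0.05, against 18.8% of all genes. Their median was -0.04 on the log2 scale, against 0.01 over the 19775 genes, of which 1.41% passed as lower and 0.678% as higher. The most different were ETS2, a broadly expressed factor, at -0.33 ± 0.16 (adjusted p 0.0676) and ERF, an ETS repressor, at 0.27 ± 0.22 (adjusted p 0.175; SD over 3 lines).

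Transcription factors of the interferon pathway were lower in part. Of 10 measured (of 13 listed), 5 fell, 0 rose and 5 did not pass, and the list median was -0.39 (limma). Over all genes 1.41% passed as lower and 0.678% as higher. NLRC5, the activator of MHC class I genes, fell by 1.29 (SD 0.71 over 3 lines, adjusted p 0.00571). IRF7, the factor that amplifies interferon transcription, fell by 1.09 (SD 0.42, adjusted p 0.00105). BATF2, an interferon-induced leucine zipper factor, fell by 1.04 (SD 0.27, adjusted p 0.00114). IRF9, the DNA-binding part of the complex that carries the interferon signal, fell by 0.99 (SD 0.51, adjusted p 0.00612), and IRF1 fell by 0.52 (SD 0.29, adjusted p 0.0175). All 5 were lower in each of the 3 lines. IRF2 was at -0.26 (adjusted p 0.0811) and IRF5 at 0.08 (adjusted p 0.671). The list was chosen with these results known, so its direction is not independent evidence. The count was 0 with cell line left out of the model, 1 without PC-3 and 1 without HBC4.

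**Figure D4:**
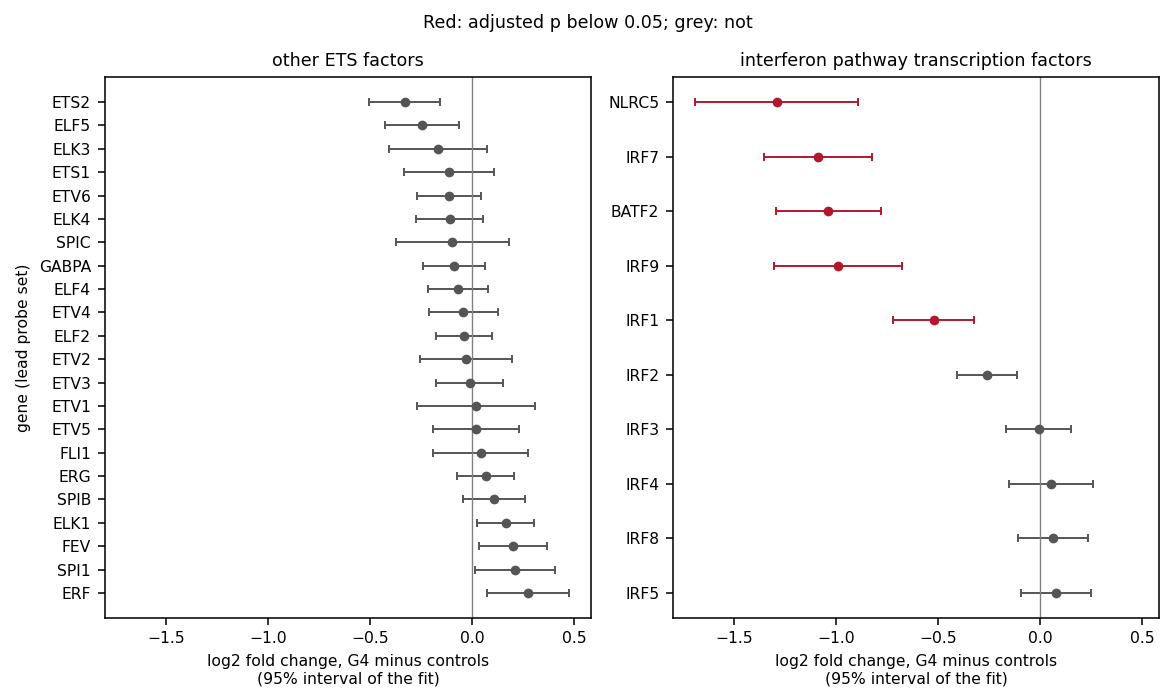
Log2 fold change of G4 oligonucleotides minus controls (horizontal axis) with the 95% interval of the fit, for the lead probe set of 22 other ETS genes (left) and 10 interferon pathway transcription factors (right). Red marks the 5 genes with an adjusted p under 0.05, all on the right and all lower, and grey marks the rest.

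Lists of epithelial and mesenchymal transcription factors were set beside them. Over all genes 1.41% passed as lower and 0.678% as higher, and 18.8% had an unadjusted p under 0.05 (limma), so 0 calls in short lists says little. Of 18 epithelial factors measured (of 21 listed), 0 passed in either direction (limma; 4 at an unadjusted p under 0.05), with a median of -0.02; TFAP2A was at -0.32 (adjusted p 0.0589) and FOXA2 at 0.26 (adjusted p 0.207). With 1 lead probe set per gene in the fit, 1 epithelial factor passed, TFAP2A. Of 7 mesenchymal factors, 0 passed (1 at an unadjusted p under 0.05), with a median of -0.11; ZEB2 was at -0.36 (adjusted p 0.164) and ZEB1 at -0.23 (adjusted p 0.392; limma throughout).

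Genes that have been linked to EHF, ELF3 or SPDEF changed in 3 of 28 cases measured (of 29 listed), all lower, where 1.41% of all genes passed as lower and 0.678% as higher. LCN2, an iron-chelator-binding protein of inflamed epithelium, fell by 0.65 (SD 0.34 over 3 lines, adjusted p 0.0189 in limma). MMP13, a collagenase, fell by 1.03 (SD 0.69, adjusted p 0.0219), and MUC1, a membrane mucin, fell by 0.48 (SD 0.25, adjusted p 0.0344). The other 25 did not pass, 0 rose, and the median was -0.05; the cornified envelope genes SPRR3 and SPRR1B were at -0.61 (adjusted p 0.0989) and -0.34 (adjusted p 0.0764). The list was chosen with earlier results of these data known, so its count is not independent evidence and is not read against the shares. Which factor, if any, acts on these genes in these lines was not tested. The count was 0 with cell line left out of the model, without HBC4, without the (uuaggg)4 array of HBC4 or without the reagent array of HBC4, and 1 without PC-3, without MKN74, without the (uuaccc)4 array of HBC4 or without the (uuaggg)4 array of PC-3 or of MKN74.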

How the data were processed

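Total RNA of 12 cultures was measured on Affymetrix arrays, per the labels. The deposited values are on a log scale taken as log2, and the submitters' processing notes name RMA without a version. The median of every probe set is 0 (within 5e-07). The sources used here do not state the centring step or the base of the logarithm. It was taken as 2 because the highest value is 11.2. Levels and detection cannot be read, and no intensity filter was applied.

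Of 54675 probe sets, 62 array controls were left out; 41091 named 1 gene, 1801 named several and 11721 are unnamed here. Probe sets were assigned to genes by the platform annotation of 2016. Of the symbols supplied with it, 41037 were matched to RefSeq and 0 changed, and the date of the symbols themselves was not checked.

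limma 3.58.1 in R 4.3.3 (lmFit, eBayes) was fitted to all 54613 probe sets on 12 arrays with treatment and cell line, which leaves 6 residual degrees of freedom. Benjamini-Hochberg adjustment covered all probe sets, with a threshold of 0.05. Cell line is a block because arrays of different treatments share it. Tables were made with Python 3.11.15, pandas 2.3.3 and numpy 2.4.6. Scripts were tested on simulated data.

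The genes, lists and motifs were chosen with earlier results of these data known. Named are all probe sets of the 5 factors, with each gene led by the probe set of largest SD of the line means; from each list the genes that passed, at most 6 in a direction, and the 2 largest that did not; and the 5 genes most like EHF and ETV7. Alternatives were quantile normalization, 1 or averaged probe sets per gene, an intensity trend, a variability filter, no block, and leaving out lines or arrays. Some items are not reported here.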

Additional observations from a re-analysis of the deposited data

Results flagged for a closer look

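In 54 sets of 4 arrays of 1 line, 2 held an array whose gap to the next was beyond Dixon's 95% critical value for the set's range. Chance alone gives about 5% of sets. For ELF3 201510_at in PC-3 it was the (uuaggg)4 array, at -0.21 (gap 0.857 of the range). For SPDEF 214403_x_at in PC-3 it was the reagent array, at 0.093 (gap 0.919 of the range).

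For 3 probe sets both G4 arrays lay above both controls in 1 line and below both in another; the difference between lines was not tested. For ELF3 210827_s_at, G4 minus controls was lower in HBC4 than in PC-3 by a difference of -0.96, and than in MKN74 by a difference of -0.62. For SPDEF 213441_x_at the difference of HBC4 from PC-3 was -0.45 and that of HBC4 from MKN74 was -0.29. For SPDEF 214403_x_at the difference of PC-3 from MKN74 was -0.24.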

How the results depend on the processing

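Of 668 values recomputed under the alternatives, 0 reversed, 636 kept their direction and side of the threshold (or stayed within 1.5 times the count, or within 1 SD), 13 newly passed the threshold and 19 moved. The counts of lead probe sets that passed remained 5 for PC-3 against HBC4 and 3 or 4 for HBC4 against MKN74. For PC-3 against MKN74 the count was 3, and 5 on the 6 control arrays (added after the data were seen); leaving out 1 array at a time gave 3 to 5, with 5 without the (uuaggg)4 array of PC-3. EHF passed for this pair of lines under 8 alternatives, with adjusted p of 0.00305 to 0.0491 (limma, 0.0336 after quantile normalization). Under 11 alternatives it did not pass, with an adjusted p of 0.483 in limma when treatment was left out of the model. Between both G4 oligonucleotides and between both controls, 0 passed under every alternative run. With no replicate block (cell line left out), 0 of all probe sets passed for G4 oligonucleotides against controls, against 859 with it, and interferon pathway factors and genes linked to EHF, ELF3 or SPDEF both went to 0. Leaving out a line or an array gave 1 to 5 interferon pathway factors, 0 to 3 linked genes and 0 to 1 epithelial factors; 1 epithelial factor also passed with 1 lead probe set per gene, with averaged probe sets and with a filter on variability. Over all probe sets the count was 218 without PC-3, 80 without HBC4 and 378 without MKN74, with fewer arrays in each of these fits. The causes of these changes were not tested. With the signal centred per probe set, dim probe sets cannot be recognised, which limits every value near 0. The EHF difference was -0.63 with averaged probe sets, against -0.85 on the lead one.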
